A study of Bos taurus with 14 samples.

Results

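Bovine granulocytes and bovine endometrial stromal cells (BES), given phosphate-buffered saline (PBS) and no interferon for 2 h, were compared gene by gene on Agilent microarrays of 1 colour. The comparison takes the 7 arrays of untreated cells out of the 14 arrays of the series, namely granulocyte samples 1 to 4 and BES samples 1 to 3. The other 7 arrays hold the same cell types after 2 h with interferon tau (IFNT, labelled as 1 mg/mL) and serve here only to ask whether a difference between the cell types was also present under another incubation. The arrays were taken by their labels, with no measured value. The comparison itself and the gene lists were chosen with earlier results of these data known, so counts over the lists are descriptions. Granulocytes carry the study tag in vivo/in vitro and BES the tag in vitro. Whether replicates are separate animals or cultures is not stated in the labels. Errors and p-values therefore measure only how far these samples spread, which may be technical. TRIzol extraction is described for granulocytes alone, and cRNA was labelled with Cy3 from a fixed amount of total RNA for both cell types. The BES arrays shared 1 slide and the granulocyte arrays a different one. Slide and cell type therefore cannot be told apart in any difference given here.

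Granulocytes are short-lived white blood cells, mostly neutrophils, that leave the bone marrow with their granules already filled. They carry receptors for chemoattractants, adhesion molecules of the integrin and selectin families, and an oxidase that makes superoxide. Endometrial stromal cells are the fibroblast-like cells beneath the lining of the uterus. They build a matrix of fibrillar collagen, respond to ovarian steroids and divide in culture. In ruminants both meet IFNT, the type I interferon by which the early conceptus signals its presence.

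Of 15208 probes, 11805 were tested, since the scanner software called them well above background on at least 3 of the 7 arrays, and these represent 5564 named genes, each by its brightest probe. A level is the log2 processed signal minus that array's 75th percentile, and a difference is granulocytes minus BES on this log2 scale. A probe or gene was called when its adjusted p was under 0.05 (limma, Benjamini-Hochberg over all probes tested). Of the probes, 10784 were called (91.4%), 5511 higher in granulocytes (46.7%) and 5273 higher in BES (44.7%), with 1869 (15.8%) and 1341 (11.4%) at least 8-fold apart. Nearly every gene was called, 5141 of 5564 (92.4%), with 2450 higher in granulocytes (44%) and 2691 higher in BES (48.4%). The arrays of the cell types did not overlap for 5127 genes (92.1%). A call or a lack of overlap alone therefore says little about any 1 gene, and sizes are given throughout. All 202 genes given below with a difference or a bound were called, and their arrays did not overlap between the groups. At least 8-fold differences were called in 856 genes higher in granulocytes (15.4%) and 695 higher in BES (12.5%). The median size of a called difference was 1.95 on the log2 scale, and the median difference over all genes was −0.14. Across probes, arrays correlated at 0.992 to 0.995 within granulocytes, at 0.996 to 0.997 within BES and at 0.554 to 0.569 between the cell types. BES arrays had 71.6% to 76.1% of probes well above background and granulocyte arrays 66.4% to 70.9%. Granulocyte arrays were dimmer. Before scaling, their 75th percentile was a signal of 1009 to 1491, and that of the BES arrays 2564 to 3173.

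The array carries 1 GAPDH probe on 100 spots, which shows how far a spot alone can move a value. Over these identical spots the difference between the cell types ran from −0.30 to 0.03 with a median of −0.11, and 39 of the 100 spots were called. The smallest called difference among them was 0.12 in size. A difference of about this size is thus within the spread of 1 probe across its spots, and only 150 of the 5141 called genes (2.92%) differed by less than 0.3. For a group with no array above background, the fold is given as a lower bound. The bound sets the bright group's mean against, on each dim array, the higher of the lowest signal called well above background and the probe's own signal. For such a gene the fitted difference rests in part on values at background and is not a bound. Bounds hold for the main processing alone, and under an alternative the fitted difference can be smaller than the bound. Medians of gene lists are fitted values too. Where bounds move a median, it is given again with such genes at their bound ("with bounds"). Where the processing moves it far, it is also given with normexp, another background correction, and over the probes well above background on all 7 arrays, a filter that removes genes seen in 1 cell type alone. The median over all genes was −0.019 with bounds, 0.25 with normexp and −0.051 for probes on all 7 arrays. Counted with the bounds, 801 genes were at least 8-fold higher in granulocytes (14.4%) and 590 in BES (10.6%). In all, 226 genes (4.06%) were well above background on every granulocyte array and on no BES array, and 483 (8.68%) the other way round. Each of these genes entered the test through 1 cell type alone, so the filter largely set its direction. A list's count of directions rests in part on such genes. The lowest signal above background lay higher on granulocyte arrays (log2 −6.16 to −5.60) than on BES arrays (−7.72 to −7.01). Its part in the 483 against 226 genes was not tested.

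The probes are 60 bases long, and 2 whose levels carry results given here are printed as the files give them. They read the MHC class II chain BOLA-DRA, higher in granulocytes, and the type I collagen chain COL1A1, higher in BES.
BOLA-DRA: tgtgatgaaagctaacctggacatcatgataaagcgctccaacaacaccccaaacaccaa
COL1A1: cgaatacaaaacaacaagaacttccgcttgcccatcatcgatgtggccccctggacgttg

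**Figure D1:**
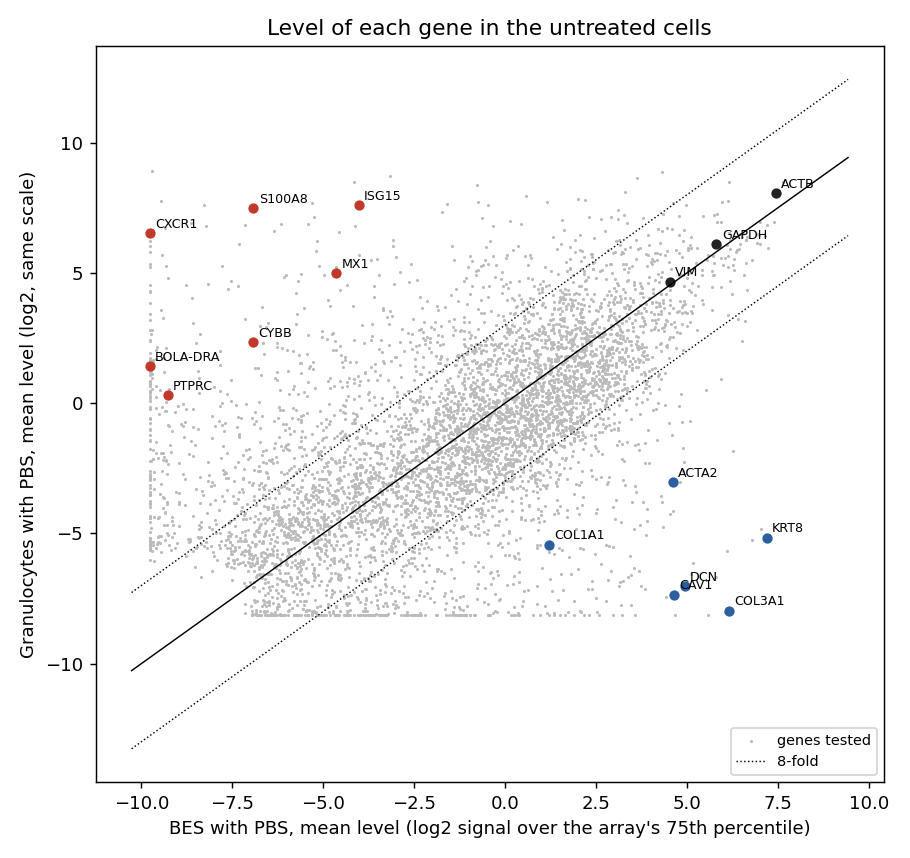
Mean level of each of the 5564 genes in BES with PBS (x axis) and granulocytes with PBS (y axis), both as log2 signal over the array's 75th percentile. The solid line marks equal levels and the dotted lines 8-fold. S100A8 and CXCR1 lie far above the lines, COL3A1 and KRT8 far below, and VIM, ACTB and GAPDH near equality. The edges of the cloud at the left and the bottom are probes at background.

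The granulocyte label was checked against its defining markers. PTPRC (CD45), the phosphatase on all nucleated blood cells, read 0.49, 0.13, 0.57 and 0.02 in granulocyte samples 1 to 4 and −9.35, −9.17 and −9.30 in BES samples 1 to 3, where no array was well above background. The groups lay far apart, and PTPRC was at least 219-fold higher in granulocytes. Over the alternatives tried its fitted log2 difference was 5.73 at the lowest, which is less than this bound. ITGB2, the beta chain of the leukocyte integrins, differed by 6.52 ± 0.07 (SE, n = 4 against 3). CYBB, the catalytic subunit of the superoxide-making oxidase, read 2.43, 2.28, 2.54 and 2.12 in granulocytes and −6.83, −7.24 and −6.71 in BES, with no overlap (9.27 ± 0.15). S100A8, a calgranulin that fills the neutrophil cytosol, had the largest difference among genes measured on every array. It read 7.58, 7.41, 7.74 and 7.24 in granulocytes and −7.29, −7.27 and −6.22 in BES, a difference of 14.42 ± 0.28. Adjusted p for these 4 genes ran from 3.6e-10 to 3.0e-09 (limma). CSF3R, S100A9 and CXCR2, further markers of neutrophils, were not analysed here.

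The proteins of neutrophil granules and the calgranulins were higher in granulocytes without exception among the 24 members tested (of 47 listed). All 24 were called higher in granulocytes, against 44% of all genes, and 19 were at least 8-fold higher, counted with bounds. Of the 24 members, 11 were on no BES array above background. These 11 passed the filter through granulocytes alone, so their direction is no separate support. The fitted median difference was 8.25, and it was 7.33 with bounds, 5.35 with normexp and 5.40 for probes on all 7 arrays. S100A12, calgranulin C, differed by 11.87 ± 0.09. The cathelicidins are antimicrobial peptides that ruminants keep in many copies, most of them in 1 run of neighbouring genes in the bovine RefSeq annotation (ARS-UCD2.0). CATHL3 read 0.53, 0.49, 0.84 and 0.29 in granulocytes and −9.83, −9.99 and −9.30 in BES, where it was on no array well above background. It was at least 258-fold higher in granulocytes, CATHL4 at least 251-fold and CATHL1 at least 210.5-fold. No pair of cathelicidin probes shared a run of more than 12 bases. Probes were compared only with each other and not with transcripts, so whether each reads its own gene alone was not tested. OLFM4, a granule glycoprotein held by a part of the neutrophils, was at least 1125-fold higher, the haemoglobin-binding protein HP (haptoglobin) at least 189-fold, and the beta-defensin DEFB4A at least 156-fold.

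Receptors for chemoattractants were mostly not above background in BES. Of 10 members tested, 9 were higher in granulocytes and 1 in BES, and 7 were on no BES array above background. These 7 passed the filter through granulocytes alone. The fitted median was 9.46, and it was 7.53 with bounds, 6.02 with normexp and 3.18 for probes on all 7 arrays. CXCR1, a receptor for interleukin-8, read 6.53, 6.54, 6.59 and 6.47 in granulocytes and −10.02, −9.99 and −9.30 in BES and was at least 16415-fold higher. The file describes this probe as the beta chain of the interleukin-8 receptor, so which receptor of the pair it reads was not settled. CXCR4, which holds neutrophils in the marrow, was at least 7211-fold higher, CCR1 at least 283-fold, the platelet-activating factor receptor PTAFR at least 159-fold and the complement receptor C5AR1 at least 76.5-fold. IL1R2, the decoy receptor for interleukin-1, differed by 9.31 ± 0.27, with 2 of 3 BES arrays above background. The exception was LTB4R, a leukotriene B4 receptor, at −0.28 ± 0.11 (adjusted p 0.0421, limma). Its call was lost in 9 of 21 alternatives, which included leaving out granulocyte sample 2 or 4 or any BES sample. The fit without BES sample 3 is counted in these a further time, as the fit on array row 1 only.

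Among leukocyte integrins, selectins and their ligands, 15 of 16 were higher in granulocytes, with a fitted median of 7.18 (5.44 with bounds, 3.64 with normexp). ICAM3, an adhesion molecule of resting leukocytes, read 6.99, 6.94, 6.69 and 6.93 in granulocytes and −6.22, −6.17 and −6.05 in BES (13.03 ± 0.09). JAML, which binds junctional proteins during migration, differed by 12.98 ± 0.08, and SELPLG, the ligand of P-selectin, by 10.56 ± 0.08. ITGAM and ITGAL, the alpha chains that pair with ITGB2, were at least 39.9-fold and 47-fold higher. CD9, a tetraspanin of many cell types, was the member higher in BES (−1.68 ± 0.06).

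Fc, complement and activating receptors had 13 of 16 members higher in granulocytes and 3 higher in BES. TYROBP, the adaptor through which activating receptors signal, was at least 18708-fold higher in granulocytes. The IgG receptors FCGR2B and FCGR3A were at least 4945-fold and 380.2-fold higher, and TREM1, an amplifier of inflammation, differed by 9.18 ± 0.09. The high-affinity IgG receptor FCGR1A went the other way. It read −7.90, −8.26, −7.92 and −7.44 in granulocytes, on no array above background, and −3.84, −3.81 and −3.93 in BES, at least 3.95-fold higher in BES. The neonatal Fc receptor FCGRT (−1.99 ± 0.05) and the lysosomal tetraspanin CD63 (−1.58 ± 0.05) were also higher in BES.

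The NADPH oxidase makes superoxide at the membrane of the phagosome. Of its 9 tested genes 8 were higher in granulocytes and none in BES. The small GTPase RAC2 was at least 9881-fold higher, and RAC1, its widely expressed relative, differed by 1.86 ± 0.05. The cytosolic subunit NCF4 differed by 11.39 ± 0.05 and NCF1 by 5.55 ± 0.07. CYBA, the membrane partner of CYBB, differed by 4.19 ± 0.09.

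**Figure D2:**
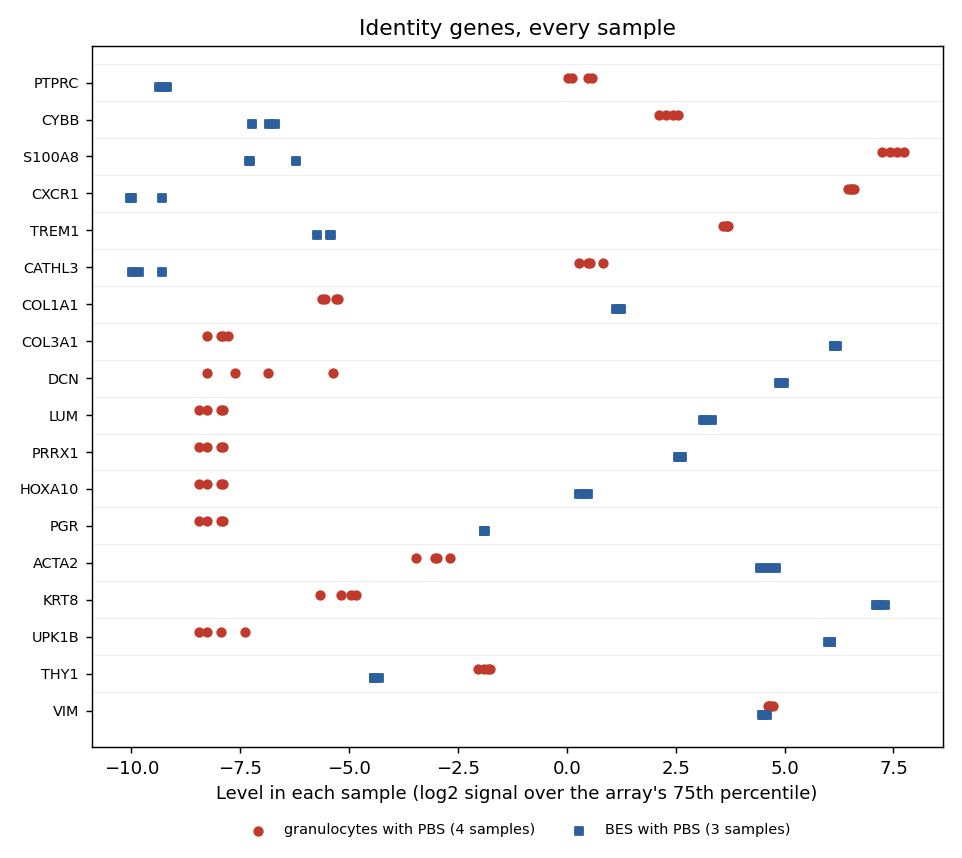
Level of 18 identity genes in each granulocyte sample with PBS (circles, 4 samples) and each BES sample with PBS (squares, 3 samples), as log2 signal over the array's 75th percentile. Rows compare cell types within 1 probe, and rows are not comparable with each other. The groups lie apart in each row except VIM, where they nearly meet, and THY1 is higher in granulocytes.

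Genes that sense bacteria and the interleukin-1 family were mostly higher in granulocytes (18 of 20, median 6.97, 6.79 with bounds and 4.91 with normexp). IL1B, the main secreted form of interleukin-1, read 6.86, 6.81, 6.80 and 6.75 in granulocytes and −7.99, −8.27 and −8.40 in BES, at least 19873-fold higher. CASP1, the protease that releases it, was at least 2120.3-fold higher, and the inflammasome protein MEFV differed by 12.42 ± 0.08. The bacterial sensors TLR2 and TLR4 differed by 9.49 ± 0.12 and 7.92 ± 0.10. IL18 (−0.49 ± 0.07) and the kinase IRAK1 (−0.43 ± 0.08) were slightly higher in BES.

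Of 29 cytokines and chemokines tested, 24 were higher in granulocytes and 3 in BES. The neutrophil chemoattractant CXCL8 read 7.72, 7.54, 7.82 and 7.57 in granulocytes and −1.75, −1.35 and −1.71 in BES (9.26 ± 0.12). CCL3 differed by 9.62 ± 0.11, CXCL2 by 8.59 ± 0.09 and CCL5 by 8.84 ± 0.11, and PTX3, a soluble pattern receptor stored in granules, was at least 674-fold higher. The members higher in BES were CXCL16 (−2.69 ± 0.10), CXCL10 (−2.22 ± 0.11) and IL6 (−1.30 ± 0.13). Immediate-early genes, which respond within minutes to stimulation, were higher in granulocytes in 14 of 15 cases, FOS by 9.11 ± 0.06, ZFP36 by 9.07 ± 0.08 and DUSP1 by 5.81 ± 0.11. Of 25 genes of apoptosis and survival, 17 were higher in granulocytes (68%) and 7 in BES (28%), against 44% and 48.4% of all genes. BCL2A1, a survival factor of neutrophils, was at least 2568-fold higher in granulocytes. BCL2L2, another survival factor, was at least 46-fold higher in BES, and the death effectors BAX (−1.86 ± 0.28) and BAK1 (−2.01 ± 0.06) were higher in BES.

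The signalling and cytoskeletal genes shared by blood cells were higher in granulocytes in all 23 of 23 cases, with a fitted median of 9.14 (7.95 with bounds, 6.86 with normexp). Of the 23, 11 passed the filter through granulocytes alone. GMFG, an actin regulator of leukocytes, was at least 21424-fold higher, CD48 at least 6764-fold and the adaptor LCP2 at least 583-fold. All 9 tested transcription factors of the myeloid list were higher in granulocytes as well, though by less (median 4.12). NFE2, a factor of the megakaryocyte, erythroid and myeloid lines, differed by 12.63 ± 0.07 and CEBPB, a factor of emergency granulopoiesis, by 5.16 ± 0.06. SPI1, the master factor of myeloid cells, was not analysed here. The rule on the largest lower bounds also named SDS (serine dehydratase, at least 86672-fold), the granule proteoglycan SRGN (38878-fold), the G-protein regulator RGS2 (34818-fold), the activation marker CD69 (13321-fold) and FGL2 (11672-fold), each as a lower bound on its excess in granulocytes. The complement protease CFD (13 ± 0.11), KCTD12 (11.13 ± 0.07) and the phosphodiesterase PDE4B (11.04 ± 0.09) were among the largest differences measured on both sides.

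Markers of other blood cells were present on the granulocyte arrays and are given with their summed level, the sum over tested genes of the signal in units of the array's 75th percentile. In bulk samples, fewer cells of a type and less RNA per cell cannot be told apart. Of 19 T and NK cell markers, 18 to 19 were above background per granulocyte array and 6 to 7 per BES array. Their summed level was 18.6 to 20.5 in granulocytes and 2.06 to 2.15 in BES. CD3E, a chain of the T cell receptor complex, read 1.21, 1.23, 1.23 and 1.21 in granulocytes and was at least 414-fold higher than in BES. CD3D and CD3G were at least 23.1-fold and 95.5-fold higher, CD2 differed by 2.37 ± 0.06, and NKG7 was above background on 2 granulocyte arrays and was not tested. PRF1, the pore protein of killer cells, was the member higher in BES (−1.26 ± 0.09).

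All 7 tested B cell markers were higher in granulocytes (summed level 12.8 to 14 against 0.56 to 0.612), MS4A1 by 5.0 ± 0.32 (1 of 3 BES arrays above background) and CD79A by 1.64 ± 0.06. Of 13 monocyte and macrophage markers, 10 were higher in granulocytes and 3 in BES (summed level 148 to 163 against 20.7 to 22.4). CD14 differed by 6.77 ± 0.09, C1QB was at least 181-fold higher in granulocytes, and the scavenger receptor CD36 (−3.90 ± 0.16) and GPNMB (−5.81 ± 0.19) were higher in BES. Eosinophils are granulocytes too, and of 5 markers of eosinophils, basophils and mast cells 4 were higher in granulocytes (summed level 14.5 to 15.2 against 0.122 to 0.137). CCR3, the eotaxin receptor, was at least 214-fold higher and ALOX15, a lipoxygenase of eosinophils, differed by 10.37 ± 0.06. Of 9 platelet and red cell markers 8 were higher in granulocytes, with a median of 1.88. ITGA2B differed by 6.57 ± 0.07, and HBB was above background on none of the 7 arrays. The part of these cells in the differences given here was not tested. CD163, CSF1R, PF4 and PPBP were not analysed here.

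**Figure D3:**
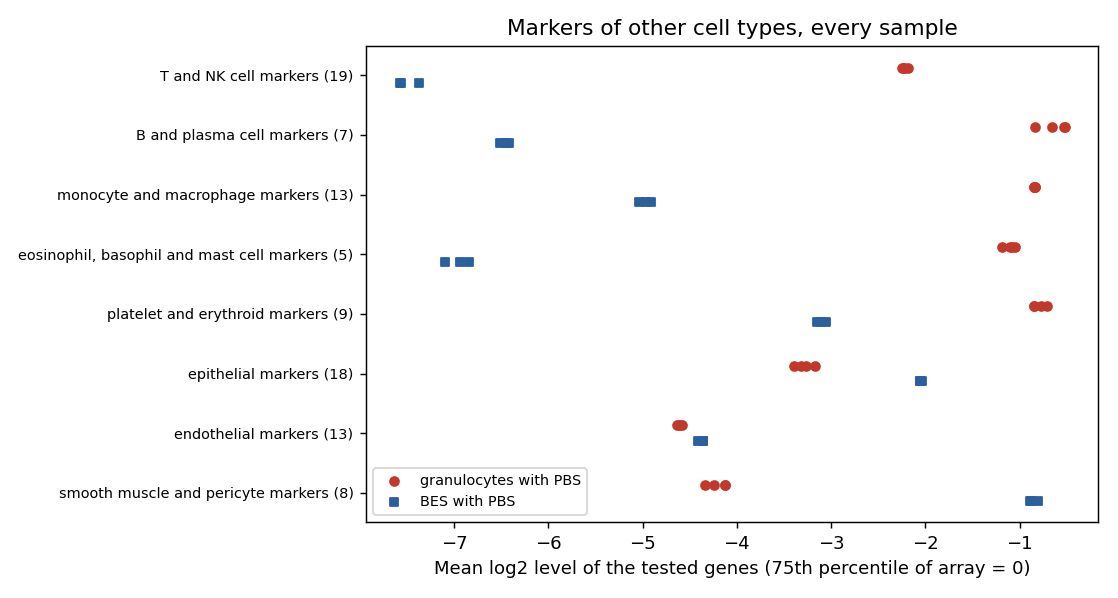
Mean log2 level of the tested markers of 8 other cell types on each untreated granulocyte array (circles) and BES array (squares). The number of genes tested stands in brackets after each name, and 0 is the array's 75th percentile. The 5 blood cell lists lie higher in granulocytes, the smooth muscle and epithelial lists higher in BES, and the endothelial list at nearly the same level in both.

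BES were set apart by their fibrillar matrix. Of 30 tested collagens and matrix glycoproteins, 25 were higher in BES, against 48.4% of all genes, and 4 in granulocytes. At least 8-fold differences, counted with bounds, made up 19 of them, against 10.6% of all genes. Of the members, 14 were on no granulocyte array above background. These 14 passed the filter through BES alone, so their direction is no separate support. The fitted median was −6.70, and it was −4.71 with bounds, −3.18 with normexp and −1.60 for probes on all 7 arrays. COL3A1, the chain of type III collagen, read 6.13, 6.13 and 6.20 in BES and −7.90, −8.26, −7.95 and −7.78 in granulocytes, on no array above background. It was at least 4091-fold higher in BES, the largest lower bound in this direction. COL1A1 read 1.21, 1.25 and 1.13 in BES and −5.29, −5.63, −5.25 and −5.56 in granulocytes, a difference of −6.63 ± 0.11, and its partner COL1A2 was at least 330.1-fold higher in BES. Decorin (DCN), a proteoglycan that coats collagen fibrils, read 4.99, 4.88 and 4.95 in BES and −7.62, −8.26, −6.86 and −5.37 in granulocytes, with 1 of 4 granulocyte arrays above background (−11.97 ± 0.63).

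Other genes of the fibrillar matrix were also far higher in BES. Lumican (LUM) was at least 535-fold higher, COL12A1 at least 521-fold, tenascin C (TNC) at least 602-fold and the microfibril protein MFAP5 at least 686-fold. Biglycan (BGN, −8.93 ± 0.09) and fibronectin (FN1, −7.99 ± 0.08) were measured on every array. The members higher in granulocytes were the proteoglycan VCAN (3.51 ± 0.10), which monocytes also make, the platelet protein THBS1 (1.79 ± 0.07), ELN (0.84 ± 0.08) and COL11A1 (0.55 ± 0.14). The enzymes and chaperones that mature collagen were also mostly higher in BES, with 9 of 11 higher in BES. Their fitted median was −6.61, with 4 members on no granulocyte array above background, and it was −4.31 with bounds, −3.38 with normexp and −1.68 for probes on all 7 arrays. The cross-linking oxidase LOX was at least 261-fold higher and LOXL1 at least 213-fold, while the collagen chaperone SERPINH1 differed by −10.97 ± 0.84 with 1 of 4 granulocyte arrays (sample 4) above background. PCOLCE, an enhancer of procollagen cleavage, was the exception (1.13 ± 0.09), and between the IFNT arrays its difference was −0.45 ± 0.08.

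Genes of the basement membrane divided. Of 7, 4 were higher in BES (57.1%) and 2 in granulocytes (28.6%), against 48.4% and 44% of all genes. Their median of −1.48 was −0.71 with bounds and turned to 0.31 with normexp. COL4A6 was at least 212-fold higher in BES and perlecan (HSPG2) differed by −7.82 ± 0.13, whereas nidogen (NID1, 1.63 ± 0.09) and the matrix receptor DAG1 (3.76 ± 0.35) were higher in granulocytes. Matrix remodelling was divided too, with 10 of 17 higher in BES (58.8%) and 6 in granulocytes (35.3%), against 48.4% and 44% of all genes. Its median of −0.97 was −0.19 with normexp. Its summed level was higher in granulocytes (467 to 493 against 114 to 117 in BES). BES had more of the gelatinase MMP2 (−6.04 ± 0.08), the metalloproteinase inhibitor TIMP3 (−5.68 ± 0.10) and the tissue plasminogen activator PLAT (−7.78 ± 0.17). Granulocytes had more of the urokinase PLAU (2.64 ± 0.07) and its receptor PLAUR (9.35 ± 0.09).

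The contractile cytoskeleton was higher in BES in 20 of 25 cases and in granulocytes in 3. Smooth muscle actin (ACTA2) read 4.63, 4.79 and 4.43 in BES and −2.98, −3.02, −3.46 and −2.68 in granulocytes (−7.65 ± 0.18). Calponin (CNN1) was at least 1995-fold higher in BES, and tropomyosin TPM1 differed by −7.04 ± 0.10. Of genes of cell-matrix adhesion and caveolae, 15 of 22 were higher in BES (68.2%), against 48.4% of all genes. CAV1, the coat protein of caveolae, was at least 1425-fold higher, and the gap junction protein GJA1 differed by −11.32 ± 0.10 with 1 of 4 granulocyte arrays above background. The 7 members higher in granulocytes included the adaptors paxillin (PXN, 3.90 ± 0.07), talin (TLN1, 2.10 ± 0.06) and vinculin (VCL, 2.12 ± 0.11).

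The stromal label was checked against COL1A1, COL1A2, COL3A1 and DCN, which were all higher in BES, and against PDGFRA, THY1 and VIM, which gave a weaker or opposite result. The growth factor receptor PDGFRA was on no granulocyte array above background and at least 1.06-fold higher in BES, and with normexp its difference turned to 0.30. The surface protein THY1, used to sort fibroblasts, read −4.31, −4.42 and −4.44 in BES and −1.77, −1.91, −2.04 and −1.82 in granulocytes, so it was higher in granulocytes (2.51 ± 0.08). Vimentin (VIM), the intermediate filament of mesenchymal and blood cells, read 4.48, 4.59 and 4.51 in BES and 4.65, 4.66, 4.73 and 4.63 in granulocytes (0.14 ± 0.05, adjusted p 0.0449, limma). The samples of the cell types almost met for VIM, and its direction flipped under each of the 4 other scalings tried, to as far as −0.87 under quantile normalization. Its call was also lost without granulocyte sample 1, 2, 3 or 4 or BES sample 1 or 3. PDGFRB was not analysed here. Of 27 mesenchymal and growth factor receptors, 16 were higher in BES (59.3%) and 8 in granulocytes (29.6%), against 48.4% and 44% of all genes. Their median of −1.60 was −0.084 with bounds and turned to 0.38 with normexp. AXL (−8.23 ± 0.16, 3 of 4 granulocyte arrays above background) and FGFR2 (−7.42 ± 0.09) were higher in BES, and the TGF-beta receptor TGFBR2 (3.36 ± 0.08) in granulocytes.

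Transcription factors of stroma and of the Mullerian duct, from which the uterus forms, were higher in BES in 19 of 20 cases. Of the 20 members, 10 were on no granulocyte array above background. These 10 passed the filter through BES alone, so their direction is no separate support. The fitted median was −5.21, and it was −4.51 with bounds, −2.83 with normexp and −2.22 for probes on all 7 arrays. HOXA10, which patterns the uterus, read 0.40, 0.28 and 0.49 in BES and −7.90, −8.26, −7.95 and −8.46 in granulocytes and was at least 75.4-fold higher. PRRX1, a factor of limb and stromal mesenchyme, was at least 347-fold higher, NR2F1 at least 322-fold, SNAI2 at least 133-fold and TWIST1 at least 27.3-fold. WT1, a factor of mesothelium and decidualising stroma, differed by −7.27 ± 0.75, with 1 of 4 granulocyte arrays above background. ZEB1, a repressor of epithelial genes, was the member higher in granulocytes (2.70 ± 0.24). HAND2 was not analysed here.

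Of 24 steroid receptor, prostaglandin and decidual genes of endometrium, 16 were higher in BES (66.7%) and 8 in granulocytes (33.3%). The shares over all genes were 48.4% and 44%. The list's median of −0.92 was −0.53 with bounds and turned to 0.17 with normexp. The progesterone receptor PGR read −1.87, −1.91 and −1.89 in BES and was on no granulocyte array above background, at least 15.5-fold higher in BES. The oestrogen receptor ESR1 was above background on none of the 7 arrays. The oxytocin receptor OXTR, through which luteolysis is driven, was above background on 3 of 3 BES arrays and on no granulocyte array, and the bound did not reach above 1. With normexp its difference turned to 0.45. The prostaglandin synthases PTGIS (at least 60.4-fold) and PTGDS (−7.16 ± 0.05) and the receptor PTGFR (at least 10.8-fold) were higher in BES. The inducible cyclooxygenase PTGS2 (3.02 ± 0.07), the prostaglandin-degrading enzyme HPGD (6.77 ± 0.08) and the prostaglandin E receptors PTGER4 (8.90 ± 0.06) and PTGER2 (at least 89.3-fold) were higher in granulocytes.

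Growth regulators were mostly higher in BES (23 of 30, median −4.29, −4.21 with bounds). The matricellular protein CCN3 was at least 2737-fold higher, the Wnt inhibitor SFRP2 at least 1456-fold, and the IGF-binding proteins IGFBP3 and IGFBP2 at least 301-fold and 174-fold. WNT5A was at least 105-fold higher. IGF1 itself went the other way. It read −3.11, −3.16, −5.35 and −2.99 in granulocytes, with sample 3 well below the rest, and was at least 14.1-fold higher there than in BES. IGFBP1 was also higher in granulocytes (5.89 ± 0.55, 1 of 3 BES arrays above background). Among genes outside the lists, the retinoid receptor STRA6 (−9.09 ± 0.07) was among the 12 largest differences toward BES measured on every array, with the actin regulator CTTN (−8.77 ± 0.13), the phosphodiesterase PDE5A (−8.44 ± 0.08), the checkpoint protein CD276 (−8.11 ± 0.11) and the apolipoprotein APOA1 (−8.10 ± 0.06).

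Several genes of epithelium and mesothelium were high in BES. Keratin 8 (KRT8) read 7.17, 7.31 and 7.10 in BES and −4.83, −4.95, −5.66 and −5.20 in granulocytes (−12.35 ± 0.19, 3 of 4 granulocyte arrays above background). Uroplakin UPK1B read 6.07, 6.06 and 6.0 in BES and was at least 3787-fold higher there. KRT19 differed by −5.0 ± 0.16, and PODXL, a sialomucin of mesothelium, podocytes and endothelium, by −11.88 ± 0.08. The 18 epithelial markers were divided, 10 higher in BES (55.6%) and 8 in granulocytes (44.4%), against 48.4% and 44% of all genes. Their summed level was 311 to 344 in BES and 22.9 to 32.5 in granulocytes. Their median of −0.86 was 0 with bounds and turned to 0.67 with normexp and 1.04 for probes on all 7 arrays. The epithelial adhesion molecule EPCAM was at least 3.75-fold higher in granulocytes and was on 0 of 3 BES arrays above background, and E-cadherin (CDH1) was higher in BES (−1.98 ± 0.17). Endothelial markers were split evenly (6 and 6 of 13). CDH5 and VWF were above background on none of the 7 arrays, and KDR on 1 granulocyte array. Of 8 smooth muscle and pericyte markers 5 were higher in BES (62.5%), against 48.4% of all genes. Their summed level was 46.1 to 54.5 in BES and 1.02 to 1.4 in granulocytes. Their median of −3.72 was −2.57 with bounds, −1.92 with normexp and 0.10 for probes on all 7 arrays. Desmin (DES) was at least 134-fold higher in BES. Whether other cells take part in these BES levels was not tested.

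**Figure D4:**
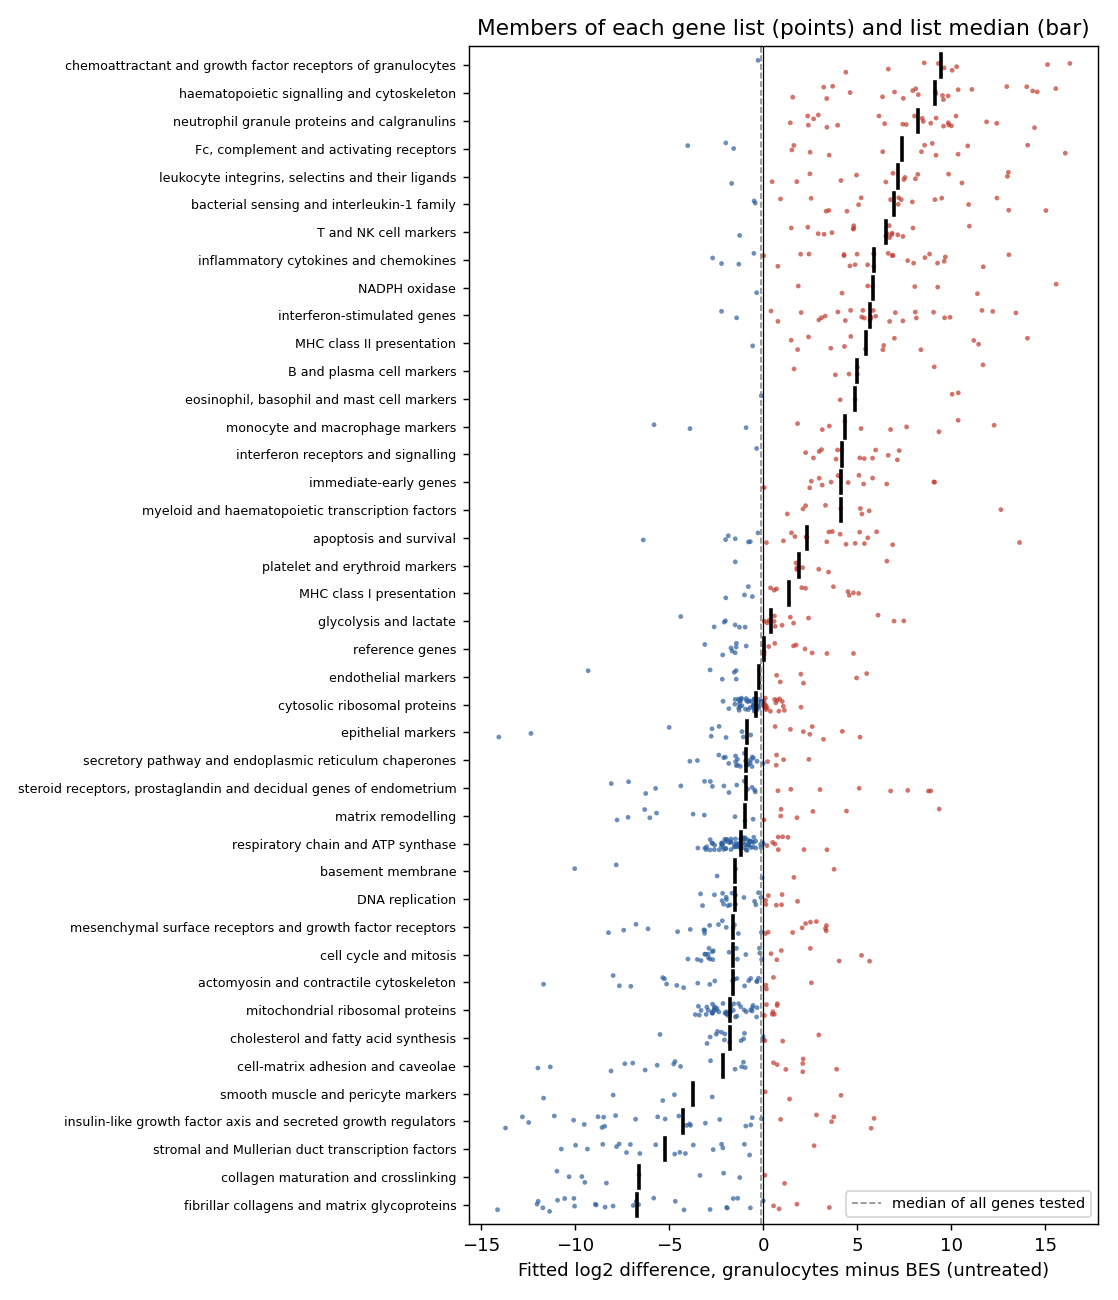
Fitted log2 difference (granulocytes minus BES, untreated) of each tested member of the 42 gene lists, 1 point a gene, red where higher in granulocytes and blue where higher in BES. The black bar is the list's median and the dashed line the median of all genes tested, −0.14. The leukocyte lists lie to the right. The lists of fibrillar collagens, collagen maturation and stromal transcription factors lie farthest to the left. The lists of cell division, protein synthesis, metabolism and secretion lie in between, beside other matrix and stromal lists such as matrix remodelling (−0.97).

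Of 8 lists of cell division, protein synthesis, metabolism and secretion, 7 had medians below 0. They ran from −1.79 (−1.54 with bounds, −0.94 with normexp) for cholesterol and fatty acid synthesis to −0.40 for cytosolic ribosomal proteins. Of 26 genes of the cell cycle, 17 were higher in BES (65.4%) and 7 in granulocytes (26.9%), against 48.4% and 44% of all genes. Their median was −1.62, and it was −0.63 with normexp. Their summed level went the other way, 74.8 to 80.6 in granulocytes and 19.4 to 20.5 in BES. The mitotic kinase CDK1 read −1.87, −1.76 and −1.81 in BES and −4.67, −5.74, −4.74 and −5.35 in granulocytes (−3.31 ± 0.26), and AURKB differed by −3.51 ± 0.09. Cyclin CCND3 (5.65 ± 0.06) and the inhibitor CDKN1C (5.22 ± 0.09) were higher in granulocytes. Of 25 genes of DNA replication 17 were higher in BES (68%), against 48.4% of all genes, and 4 in granulocytes. Thymidylate synthase (TYMS, −3.23 ± 0.06) was among those higher in BES. Their median of −1.48 was −0.85 with normexp.

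Ribosomal proteins of the cytosol and of the mitochondrion are encoded by separate sets of genes. Of 68 cytosolic ribosomal proteins, 39 were higher in BES (57.4%) and 10 in granulocytes (14.7%), against 48.4% and 44% of all genes. Fewer of them were called (72.1%) than of all genes (92.4%). Their median was −0.40, with a range of −2.14 to 2.0. Of 47 mitochondrial ribosomal proteins, 40 were higher in BES and 4 in granulocytes, with a median of −1.76. MRPL36 and MRPL19 differed by −3.61 ± 0.06 and −3.45 ± 0.11. The respiratory chain and ATP synthase gave 65 of 77 higher in BES and 8 in granulocytes, with a median of −1.20. The complex I subunits NDUFS4 (−3.48 ± 0.11) and NDUFA12 (−3.04 ± 0.12) were lower in granulocytes, and NDUFV3 (3.39 ± 0.05) was higher there. Under the alternatives tried, the medians ran from −1.38 to −0.32 for cytosolic ribosomal proteins, from −1.95 to −1.71 for mitochondrial ones and from −1.79 to −1.15 for the respiratory chain.

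Glycolysis was divided, with 12 of 20 genes higher in granulocytes (60%) and 7 in BES (35%), against 44% and 48.4% of all genes. Its median of 0.43 turned to −0.48 under quantile normalization. The glucose transporters SLC2A1 (6.95 ± 0.13) and SLC2A3 (6.10 ± 0.18, 2 of 3 BES arrays above background) and the regulator PFKFB3 (7.47 ± 0.20) led this group. The muscle-type phosphofructokinase PFKM (−4.39 ± 0.13) and the enolase ENO1 (−2.07 ± 0.08) were higher in BES. Cholesterol and fatty acid synthesis was higher in BES in 12 of 17 cases, the desaturase SCD among them (−5.49 ± 0.06). Of 29 genes of the secretory pathway 23 were higher in BES (median −0.90), among them the coat proteins SEC23A (−3.90 ± 0.05) and SEC24D (−3.50 ± 0.06) that carry procollagen out of the endoplasmic reticulum. DDIT3, a factor of the stress response there, was higher in granulocytes (2.42 ± 0.11).

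Interferon-stimulated genes were higher in granulocytes that had received no IFNT. Of 30 tested, 28 were higher in granulocytes and 2 in BES, and 23 were at least 8-fold higher in granulocytes, against 14.4% of all genes. ISG15, a ubiquitin-like modifier, read 7.72, 7.46, 7.69 and 7.53 in granulocytes and −3.80, −4.15 and −4.13 in BES (11.63 ± 0.11). The antiviral GTPase MX1 read 5.06, 5.02, 4.87 and 5.03 in granulocytes and −4.48, −4.70 and −4.75 in BES (9.64 ± 0.09). The RNA-sensing synthetase OAS1X was at least 955-fold higher, OAS1Z at least 8.41-fold and OAS2 at least 146-fold. MX2 differed by 8.14 ± 0.22 with 2 of 3 BES arrays above background, and XAF1, a promoter of cell death, by 13.43 ± 0.13 with 2 of 3. The chemokine CXCL10 (−2.22 ± 0.11) and the nuclease TREX1 (−1.42 ± 0.05) were higher in BES.

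Receptors and signalling genes of the interferons were higher in granulocytes in 14 of 15 cases. Both chains of the type I receptor were among them. IFNAR1 read −0.57, −0.45, −0.77 and −0.16 in granulocytes and −5.72, −5.58 and −5.56 in BES (5.13 ± 0.14), and IFNAR2 read 6.81, 6.77, 6.78 and 6.77 and −0.37, −0.35 and −0.30 (7.13 ± 0.05). The groups lay apart for both chains. IRF9, which joins the activated STAT proteins on DNA, differed by 5.97 ± 0.06 and STAT5B by 5.37 ± 0.09. The feedback inhibitor SOCS2 was the member higher in BES (−0.35 ± 0.10). Of 14 genes of MHC class I presentation, 10 were higher in granulocytes (71.4%), against 44% of all genes, and 4 in BES. B2M differed by 4.79 ± 0.07. Of 15 genes of class II presentation, 14 were higher in granulocytes. BOLA-DRA read 1.27, 1.53, 1.08 and 1.80 in granulocytes and −10.02, −9.99 and −9.30 in BES and was at least 475-fold higher, and BOLA-DRB3 at least 3433-fold. Class II chains are made by monocytes and B cells, among others. Markers of both were also present on the granulocyte arrays, and their part in these levels was not tested. Probes of paired class II chains shared no run of more than 8 bases. They too were not compared with transcripts, so whether each reads its own chain alone was not tested.

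**Figure D5:**
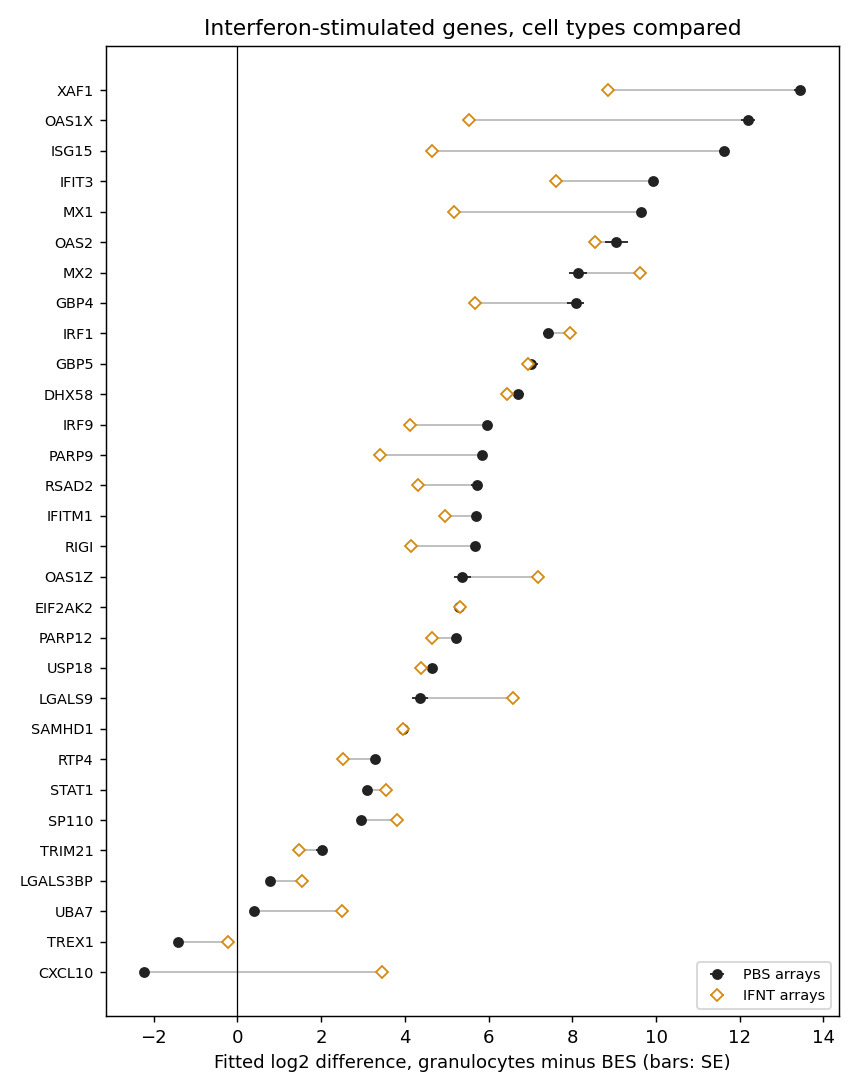
Fitted log2 difference (granulocytes minus BES) of the 30 interferon-stimulated genes tested, between the PBS arrays (filled circles) and between the IFNT arrays (open diamonds), with standard errors. The dark circles lie right of 0 for 28 of the 30 genes. ISG15 and MX1 differ less between the IFNT arrays, and CXCL10 lies on opposite sides of 0.

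The difference between the cell types was present under IFNT for most genes. Of the 5141 genes called between the PBS arrays, 4902 (95.4%) were called with the same direction between the IFNT arrays, and so were 1390 of the 1391 that were at least 8-fold apart, counted with bounds. The IFNT arrays lie on the same slides as the PBS arrays of their cell type, so this repeat shares the slide with the first. It may also share animals or cultures, which the labels do not state. Most genes were called between the IFNT arrays in any case, 2547 of all 5564 higher in granulocytes and 2670 higher in BES. Of the genes called between the PBS arrays, 72 were called with the opposite direction between the IFNT arrays. CXCL10, an interferon-induced chemokine, went from −2.22 ± 0.11 between the PBS arrays to 3.45 ± 0.05 between the IFNT arrays. The members of the ISG list had a fitted median difference of 5.69 between the PBS arrays (5.48 with bounds) and 4.66 between the IFNT arrays. ISG15 differed by 4.66 ± 0.06 and MX1 by 5.17 ± 0.05 between the IFNT arrays, a change of −6.97 ± 0.13 and −4.47 ± 0.10 from the PBS arrays (adjusted p 7.3e-12 and 2.3e-11, limma).

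Of 19 tested genes often used as references, 16 were called (84.2%), against 92.4% of all genes, 8 higher in granulocytes and 8 in BES. Their median of 0.04 turned to −0.69 under quantile normalization. ACTB differed by 0.61 ± 0.07 and the brightest GAPDH probe by 0.29 ± 0.06, and both flipped under quantile normalization, to −0.67 and −0.69. The GAPDH call was also lost with median scaling (0.14) and with scaling on the reference genes (0.11), and the 100 spots of the other probe had a median of −0.11. POLR2A (3.39 ± 0.13) was higher in granulocytes, and SDHA (−1.72 ± 0.06) and EEF2 (−1.66 ± 0.07) in BES. Of 166 genes with more than 1 tested probe, 19 had probes called in opposite directions. Among the latter was MUC1, an epithelial mucin, whose probes gave −2.77 and 3.19, so no direction is stated for it.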

How the data were processed

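Each sample's Cy3-labelled RNA was hybridised to 1 array of a custom bovine design. The deposited scanner files hold fluorescence intensity per spot, and their processed signal is background-corrected per the file headers, with the scanner software named as Agilent Feature Extraction 9.5 in the submitters' processing notes. The authors' deposited value table holds log2 values, and each column was the log2 processed signal minus 1 constant per array. The genome build is not given in the sources used here.

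Processed signals were taken to log2, scaled to each array's 75th percentile of non-control probes, and compared with limma 3.58.1 in R 4.3.3 (two-sided moderated test, Benjamini-Hochberg over all probes tested, threshold 0.05) on the 7 arrays of untreated cells, without the IFNT arrays. Spots marked as outliers were left out. Tested probes were well above background on at least 3 arrays. The number of arrays limits the precision. The fit was tested on simulated data. Of the probes, 7047 received a symbol (6716 distinct) and 8161 none, by accession, gene number or symbol in the files, looked up in the RefSeq table of ARS-UCD2.0, and 985 of these names rest on a description as similar to a gene. Symbols follow that table and can differ from the file's own description.

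Genes are named by a rule. It took the 12 largest differences each way measured on every array, the 10 largest lower bounds each way, and fixed markers. Per list it took up to 8 members with the largest difference and up to 4 called members against the majority. Up to 4 members with the smallest difference were added for some lists. These were the lists of division, protein synthesis, metabolism, secretion, interferon, MHC, immediate-early and apoptosis genes. From these a subset is described, and a few are not reported here. The comparison and the gene lists were chosen with earlier results of these data known. Same-numbered samples of the cell types deviated together at r of −0.01, 0.03 and 0.10. Differently numbered samples gave r of −0.14 to 0.13, so these values cannot settle whether the numbers pair the samples. The main fit leaves the samples unpaired. Alternatives changed the scaling, background correction, filter, variance model, arrays and probe rule.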

Additional observations from a re-analysis of the deposited data

Results flagged for a closer look

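Among the 202 genes named, 1 granulocyte sample stood apart from the other 3 in 14 (the gap to its nearest neighbour as a share of the group's range is given). Chance marks about 1 in 20 such groups, or about 5%. Sample 1 stood apart as the lowest for CD9 (0.853), CXCL16 (0.926) and OLFM4 (0.877). Sample 2 was the lowest for PTGIS (0.860) and SEC23A (0.836), and the PTGIS values were all at background. Sample 3 was the highest for GMFG (0.874) and the lowest for FGL2 (0.898), KCTD12 (0.915) and IGF1 (0.928). IGF1 read −5.35 there and −3.16 to −2.99 in the other samples. Sample 4 was the highest for COL11A1 (0.890), FCGRT (0.946) and SERPINH1 (0.960), and the lowest for JAML (0.839) and TPM1 (0.868). SERPINH1 read −4.61 in sample 4 and −8.04 to −7.90 in the others, which were at background. Apart from IGF1 and SERPINH1, the sample that stood apart lay within 0.4 log2 units of its nearest neighbour.

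The difference between the cell types turned its direction between the PBS and the IFNT arrays, with both differences called and the change itself called (limma, adjusted p under the threshold), for 3 of the named genes. The change was 5.67 for CXCL10, −1.58 for PCOLCE and 1.32 for SOCS2.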

How the results depend on the processing

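Most counts kept within 1.5 times of the values given. Leaving out each sample in turn gave 10540 to 10783 called probes, 1850 to 1878 at least 8-fold higher in granulocytes, 1324 to 1345 in BES, and a median difference of 0.02 to 0.05. The median difference of all 11805 probes tested was 0.03 and moved with the scaling and the filter. It was −0.12 with the percentile taken over probes above background on all 7 arrays, −0.12 with median scaling, −0.21 with quantile normalization, −0.15 on the reference genes, 0.46 with normexp, 0.71 with no filter, 0.16 for probes above background on all 7 arrays and −0.018 for those above it on every array of at least 1 group. With normexp, 680 probes were at least 8-fold higher in BES. For probes above background on all 7 arrays the counts were 1139 in granulocytes and 623 in BES, since this filter removes probes seen in 1 cell type. The replicate block gave 10707 called probes. Granulocyte sample 4 has no partner and drops out of the blocked difference. LTB4R and VIM lost their call under the block. Of 4157 values of named genes under the alternatives, 10 reversed and 21 lost their call, all of LTB4R, VIM or GAPDH. The fit without BES sample 3 enters these counts a further time, as the fit on array row 1 only. VIM turned to −0.014 with median scaling and with the percentile over probes on all 7 arrays, to −0.044 on the reference genes and to −0.87 with quantile normalization. That normalization also turned ACTB to −0.67 and GAPDH to −0.69. Normexp turned OXTR to 0.45 and PDGFRA to 0.30. The mean over all tested probes turned GAPDH to −0.10 and MUC1 to 0.21. The cause was not tested. Medians of 8 of the 42 lists took the other sign under at least 1 alternative. Signals near background limit the rest. The lowest signal above background was higher on granulocyte arrays (log2 −6.16 to −5.60) than on BES arrays (−7.72 to −7.01), so lower bounds toward BES reach less far. ESR1, CDH5, VWF and HBB were above background on none of the 7 arrays. Their mean levels were −8.14 to −7.37 in granulocytes and −9.77 to −8.45 in BES. Small differences near background are limited by this offset.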

Other observations

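Some values stand outside the rule for named genes and were chosen after they had been seen. FBP2, a fructose bisphosphatase of muscle, had a probe at −5.47 ± 0.15 and another at 7.15 ± 0.07. BSG (basigin) had probes at −5.19 ± 0.14 and 2.22 ± 0.25, and POLR2C, a subunit of RNA polymerase II, at −2.07 ± 0.05 and 2.11 ± 0.08. All of these probes were called (limma), and which of them reads its gene was not tested. Between the PBS and the IFNT arrays, the difference between the cell types turned by 4.79 for the peroxisomal reductase DECR2 (−2.42 to 2.37) and by 4.11 for the vasodilator peptide ADM (−3.92 to 0.19), both on the log2 scale.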
